A study of Mus musculus with 15 samples.

Results

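The transcripts described here have no gene name and no RNA accession on the array: each probe is listed only by a stretch of a chromosome and a strand. They were chosen by that name alone, as noncontrol probes whose target is written as a chromosome, a start, an end and F (forward) or R (reverse). A short stretch of chromosome 9 was left out, which removed 3 probes, and 1 further probe with a coordinate but no strand was not used. The rule found 4446 of the 56605 noncontrol probes. They stand for 4059 stranded intervals, of 47846 targets on the array, on 3227 stretches of genome in mouse build mm9, and they lie on all of the 20 chromosomes represented, X included. No measured value entered the choice.

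Mammalian genomes are copied into RNA well beyond the named genes. Much of this RNA is long noncoding RNA: transcripts made by RNA polymerase II, often spliced and given a poly(A) tail as mRNAs are, but without a long reading frame. As a class they are usually less abundant and more restricted to particular tissues than mRNAs, and those with known roles act on chromatin, on neighbouring genes, as hosts of small RNAs or as scaffolds for proteins. Catalogues of such transcripts list many by position before any function is known, often with both strands of a stretch as candidates, since it may be unclear which strand is copied. Whether the transcripts behind these probes code for protein, and which named genes lie beside them, was not analysed here, and no probe sequence was used.

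Female mice of the outbred stock Crlj:CD1(ICR), labelled as 11 weeks old, were fed a diet with 0, 20, 500, 2500 or 5000 ppm of permethrin, a pyrethroid insecticide, for 7 days. Each diet had 3 mice, and the RNA of each whole lung was put on 1 single-colour Agilent array, so there were 15 arrays. In whole lung, fewer cells of a type and less RNA per cell cannot be told apart. Levels are given as log2 signal relative to the 75th percentile of the same array, so that 0 is that percentile and a difference of 1 is a doubling. A probe counted as detected when the scanner software called it well above background.

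Across the series, the lung markers Sftpc of alveolar type 2 cells, Ager of type 1 cells and Scgb1a1 of club cells were well above background on 15 of 15 arrays. The arrays sat on 2 slides: all control and 20 ppm mice and the 500 ppm mice 1 and 2 on the first, and the 500 ppm mouse 3 and all 2500 and 5000 ppm mice on the second. For 2500 and 5000 ppm against control, slide and diet cannot be told apart. Among the coordinate-only probes kept for testing, the first principal component held 47.6% of the variance and set apart the 500 ppm mouse 3 and, less so, the 2500 ppm mouse 3, whose files also carry an extraction status of 1 where the others have 0. The second held 10.8% and set apart mouse 1 of the control and of the 20 ppm diet. The 500 ppm mouse 3 was the highest array for 47.1% of these members, against 30.9% of all features tested. Of 59 marker genes of 12 cell types, 57 could be tested and none passed the threshold against control at any diet or on the trend. Their list medians at 5000 ppm against control ran from -0.34 for thymus, with 1 of 3 genes tested, to 0.97 for heart muscle. Across single lungs the mean level of the heart muscle list ran from -1.28 to 3.37. The part of these differences in the results below was not tested.

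The intervals were of very different length. The median was 7201 bases, the shortest 62 and the longest 538251, with 939 intervals under 1000 bases and 108 over 100000. Many overlapped: the 3227 stretches merged into 2148 separate loci, and 2411 of the 4446 probes lay in a locus with more than 1 interval. On 832 stretches the array held probes for both strands, and on 2395 for 1 strand. For 315 stranded intervals there were several probes, up to 6, so that the same transcript could be read more than once.

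Most of these unnamed transcripts gave signal in lung. Of the 4446 probes, 2599 (58.5%) were well above background on all 15 arrays, 1545 on some and 302 (6.79%) on none. Over all probes of the array, 64.0% were detected on all 15 arrays and 8.58% on none. The share on all 15 arrays was 74.7% among probes for RefSeq mRNAs (accessions starting with NM) and 44.7% among probes for RefSeq noncoding RNAs (NR), and 51.0% among the remaining probes. On 15 of 15 arrays the coordinate-only probes were detected less often than mRNA probes and more often than NR probes. For a probe to be tested it had to be well above background on all 3 arrays of at least 1 diet, which 3376 members (75.9%) were, beside 76.2% of all probes.

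As a class, the coordinate-only probes were dimmer than mRNA probes. The median of the members' mean levels over the 15 arrays was -3.53, against -1.57 for mRNA probes and -4.25 for NR probes. Only 500 members (11.2%) lay above the array's 75th percentile on average, against 35.6% of mRNA probes. Brightness depends on the probe as well as on the transcript, so these are distributions over probes and no order of transcripts was drawn from them.

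**Figure D1:**
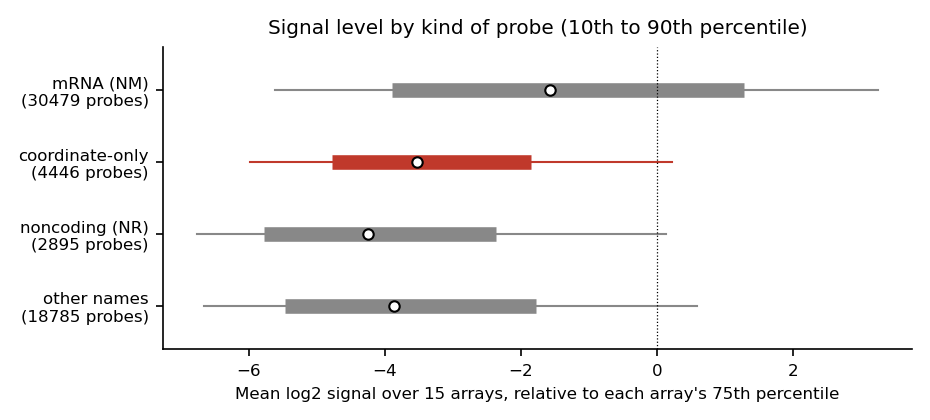
Mean log2 signal over 15 arrays, relative to each array's 75th percentile (dotted line at 0), for 4 kinds of probe; thin lines run from the 10th to the 90th percentile of probes, thick bars between quartiles, and circles mark medians. Coordinate-only probes had a median of -3.53, between those of mRNA probes (-1.57) and NR noncoding probes (-4.25).

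Longer intervals were more often detected. The share of probes well above background on all 15 arrays was 48.2% for intervals of up to 1000 bases, 58.8% from 1000 to 5000, 60.8% from 5000 to 20000, 61.3% from 20000 to 50000 and 65.4% over 50000. Strand made little difference, with 57.3% of 2224 forward and 59.6% of 2222 reverse probes detected on all arrays. Probes that share a locus are not independent, so these shares are given without a test.

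Where both strands of a stretch had probes, both often gave signal. On 393 of the 832 such stretches (47.2%) both strands had a probe well above background on all 15 arrays, on 139 the forward strand alone, on 176 the reverse strand alone and on 124 neither. Probes within 1 stranded interval often disagreed as well: on 130 of the 315 intervals with several probes all of them were detected on all 15 arrays, on 131 some and on 54 none. An interval's call therefore depended on the probe that read it.

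The same was seen across arrays. Among members detected on all 15 arrays, 191 pairs of probes on the same stranded interval had a median Pearson correlation over the 15 arrays of 0.40, and 41 of them (21.5%) exceeded 0.8. For 475 pairs on opposite strands of the same interval the median was 0.23, and for the 3194921 pairs on different chromosomes it was 0.19. With the 4 arrays that stood apart left out, the 3 medians were 0.36, 0.16 and 0.09. These are descriptions over pairs that share arrays and scaling; 2 probes named for the same transcript followed each other more closely than unrelated probes in the median, but 40 of the 191 pairs correlated below 0.

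**Figure D2:**
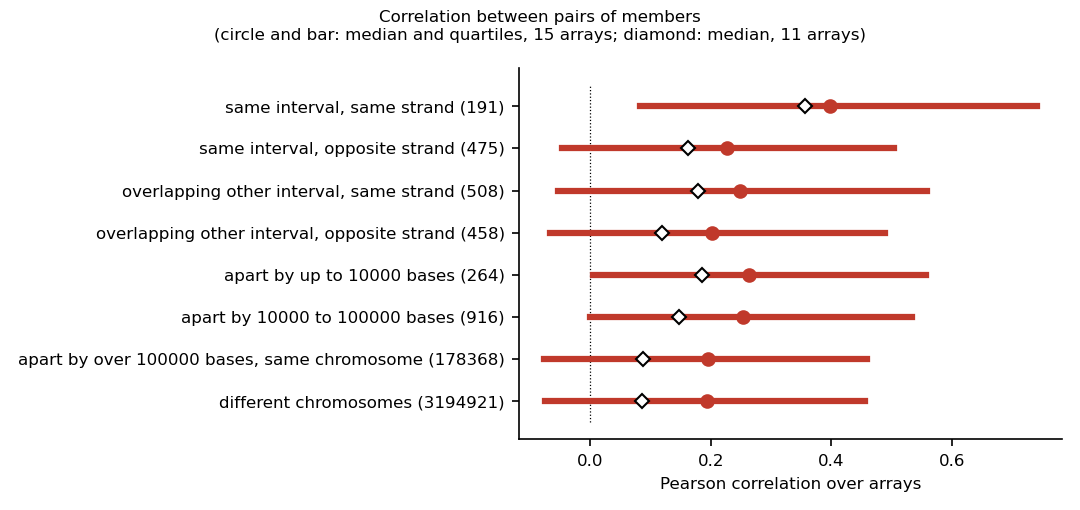
Pearson correlation over arrays between pairs of members detected on all 15 arrays, by how the intervals lie to each other, with the number of pairs in brackets; circles and bars are medians and quartiles over 15 arrays, and diamonds are medians over the 11 arrays that did not stand apart. Pairs on the same strand of the same interval have the highest median (0.40), and pairs on different chromosomes the lowest (0.19).

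A few members were bright. The 5 members with the highest mean level were on chr14:78924115-78938125 forward (8.67), both strands of chr12:73838608-73862621 (8.56 reverse, 8.39 forward), chr6:116092274-116144199 forward (8.44) and chr7:108209996-108216032 reverse (8.16). The chromosome 14 member ran from 7.56 in the 20 ppm mouse 1 to 9.86 in the 2500 ppm mouse 3, with a median of 8.72 over the 15 lungs. The opposite strands of the chromosome 12 stretch followed each other with r = 0.97 over 15 arrays and 0.98 over the 11 arrays that did not stand apart.

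The brightest 20 members lay on 19 stretches of 11 chromosomes, and most moved together across arrays. Their median pairwise correlation was 0.85 over 15 arrays and 0.87 over 11, and the lowest 0.28 and 0.31. All 20 were lowest in the 20 ppm mouse 1, the lowest array for 22.9% of members tested and 23.5% of all features. The 2500 ppm mouse 3 was highest for 13 of them, and for 16.0% of members tested and 11.0% of all features. Named probes of like brightness were not compared. None of the 5 brightest passed the threshold at any diet.

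The first dose question was whether the share of detected transcripts changed with diet. It was 78.5% ± 2.79 of the members in controls, 73.2% ± 7.98 at 20 ppm, 79.4% ± 7.03 at 500 ppm, 73.5% ± 1.05 at 2500 ppm and 72.5% ± 1.66 at 5000 ppm (mean ± SD, n = 3). The 3 control lungs stood at 81.5%, 75.9% and 78.2%, and the 3 lungs at 5000 ppm at 73.3%, 73.6% and 70.6%, so these groups did not overlap. The difference was -5.98 percentage points, with p = 0.1 in a two-sided exact permutation test, the smallest value that 3 against 3 can give. All other probes together differed by -3.75 points, also with p = 0.1 in the exact test. The arrays differed in brightness as well. Before scaling, the 75th percentile of log2 signal was 8.88, 8.54 and 8.65 on the control arrays and 8.32, 8.26 and 8.21 at 5000 ppm. The part of array brightness in the share was not tested, and slide and diet cannot be told apart here. The 20 ppm mice, all on the first slide, spanned a wider range, from 68.5% to 82.4%.

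**Figure D3:**
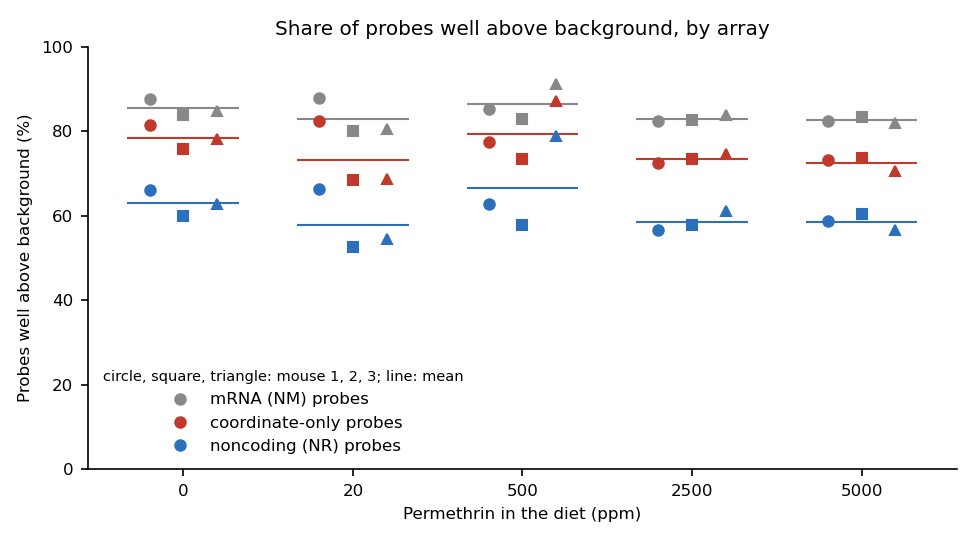
Share of probes well above background on each array against permethrin in the diet (ppm), for mRNA (NM), coordinate-only and noncoding (NR) probes; points are mice and lines are means of 3 mice. Coordinate-only probes lie between the other kinds on every array, with the lowest value in the 20 ppm mouse 2 (68.5%) and the highest in the 500 ppm mouse 3 (87.2%).

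The median log2 difference from control over the 3376 members tested was -0.07 at 20 ppm, 0.15 at 500 ppm, 0.03 at 2500 ppm and 0.04 at 5000 ppm, beside -0.03, 0.12, 0.05 and 0.07 over all 34402 features. The value at 500 ppm turned to -0.08 when the array median replaced the 75th percentile as the scale, and to -0.08 without the 500 ppm mouse 3. That at 2500 ppm turned to -0.15 without the 2500 ppm mouse 3 and to -0.04 without the control mouse 1, and that at 5000 ppm to -0.02 without the control mouse 1. With slide as a fixed block the medians at 2500 and 5000 ppm were -0.58 and -0.61, beside -0.15 and -0.14 over all features, and with slide as a random block they were -0.23 and -0.24, beside -0.07 and -0.05. No direction was therefore settled for the median member. Differences of more than 1 on the log2 scale were few, among members as among all features. They were seen for 20 members at 20 ppm (0.592%, beside 0.794% of all features), 69 at 500 ppm (2.04%; 1.88%), 66 at 2500 ppm (1.96%; 1.70%) and 42 at 5000 ppm (1.24%; 1.34%).

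Few single members passed the test, which was limma's moderated test with Benjamini-Hochberg adjustment over all 34402 features and a threshold of 0.05. At 5000 ppm 1 member was lower than control and none higher, that is 0.0296% of the members, where 0.0407% of all features were called. On the linear trend over the 5 dose ranks 2 members rose and 2 fell, 0.118% of the members beside 0.142% of all features. At 20, 500 and 2500 ppm against control, and at 5000 against 2500 ppm, limma called no member and no feature at all (percent called 0 in each); 46, 115, 290 and 163 members had an unadjusted p under 0.05 in these. That is 1.36%, 3.41%, 8.59% and 4.83% of the members, close to the 1.47%, 2.83%, 8.50% and 5.04% of all features. The F test over the 5 diets called no member and 0.0407% of all features; 206 members (6.10%) had an unadjusted p under 0.05, beside 5.34% of all features. Within the first slide alone no member was called at 20 or 500 ppm, and within the second none at 5000 against 2500 ppm.

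The member called at 5000 ppm lies on the reverse strand of chr5:149775338-149781472 and was read by probe A_30_P01031239. Its log2 level was -1.45, -1.56 and -1.69 in controls, -2.03, -1.85 and -1.92 at 20 ppm, -2.01, -2.09 and -2.08 at 500 ppm, -2.50, -2.39 and -2.39 at 2500 ppm, and -2.61, -2.29 and -2.45 at 5000 ppm. Every permethrin-fed lung lay below every control lung, and the 6 lungs at the highest doses lay below all others. The difference at 5000 ppm was -0.89 ± 0.13 (SE), a 1.85-fold lower signal, with limma's adjusted p = 0.0348. On the trend it fell by 0.23 per dose rank, with adjusted p = 0.00798.

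This interval of 6135 bases lies inside longer members on both strands, chr5:149751979-149808240, and inside chr5:149760472-149827389 on the reverse strand. No other probe of the locus passed the threshold. On the same stranded interval A_30_P01028468 differed by -0.51 ± 0.39 at 5000 ppm (adjusted p = 0.966) and followed the called probe with r = 0.47 over 15 arrays, and A_30_P01022657 was well above background on 6 arrays only and was not tested. The adjusted p of the called probe at 5000 ppm ran from 0.0312 to 0.233 when single arrays were left out, and stayed past the threshold only without the 20 ppm mouse 1 or the 2500 ppm mouse 3; that of the trend ran from 0.00881 to 0.0496. With slide as a fixed block the difference at 5000 ppm was -0.85 (adjusted p = 0.0371) and the trend -0.22 (adjusted p = 0.0503); only the 500 ppm mice span both slides, so this block rests on them. With slide as a random block the adjusted p values were 0.434 and 0.414.

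The second member that fell was on the reverse strand of chr18:5808025-5818625 (probe A_30_P01030900). It read -2.90, -3.27 and -3.21 in controls, -3.14, -3.01 and -3.22 at 20 ppm, -3.64, -3.31 and -3.32 at 500 ppm, -4.09, -3.69 and -3.88 at 2500 ppm, and -4.14, -3.75 and -3.83 at 5000 ppm. Control and 20 ppm lungs lay together, and all 6 lungs at the highest doses lay below them. The trend was -0.23 ± 0.04 (SE) per dose rank, with limma's adjusted p = 0.0374, while the difference at 5000 ppm, -0.78 ± 0.17, had an adjusted p of 0.269.

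The forward strand of that stretch, read by A_30_P01026862, differed by -0.09 ± 0.19 at 5000 ppm (adjusted p = 0.973). A short reverse interval inside it, chr18:5813291-5813708 (A_30_P01021354), was well above background on 6 arrays, followed the called probe with r = 0.07 and gave a trend of -0.10 ± 0.18 (adjusted p = 0.848). Leaving out single arrays moved the adjusted p of the called trend between 0.0335 and 0.148, past the threshold only without the 500 ppm mouse 1 or mouse 3. Slide as a fixed block gave -0.28 with an adjusted p of 0.0508, and as a random block the adjusted p was 0.761.

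Of the 2 members that rose with dose, the first was on the reverse strand of chr18:5119300-5181600 (probe A_30_P01022336), an interval of 62301 bases. Its levels were -3.98, -3.84 and -4.42 in controls, -4.02, -4.02 and -3.78 at 20 ppm, -3.28, -3.75 and -3.15 at 500 ppm, -3.24, -3.02 and -3.59 at 2500 ppm, and -2.63, -3.12 and -2.47 at 5000 ppm. All 9 lungs from 500 ppm upward lay above all control and 20 ppm lungs, and of these only the 2500 ppm lungs overlapped those at 5000 ppm or 500 ppm. The trend was 0.33 ± 0.05 (SE) per dose rank (limma's adjusted p = 0.0273), and the difference at 5000 ppm was 1.34 ± 0.23, or 2.52-fold, which did not pass (adjusted p = 0.130).

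This locus was read by several probes, which differed. A sister probe on the same stranded interval, A_30_P01022543, followed the called one with r = 0.84 over 15 arrays and gave a trend of 0.28 ± 0.05, just past the threshold on the other side (adjusted p = 0.0526). The third, A_30_P01020209, followed it with r = 0.40 and gave 0.17 ± 0.09 (adjusted p = 0.606). A shorter reverse interval inside it, chr18:5162836-5165729, had 3 probes, of which A_30_P01024217 gave a trend of 0.24 ± 0.09 (adjusted p = 0.461). The forward strand was well above background on 2 of 15 arrays. Leaving out single arrays moved the adjusted p of the called trend between 0.0210 and 0.128, and the call was lost without any 1 of the control or 20 ppm mice, the 2500 ppm mouse 1 or 2, or the 5000 ppm mouse 1 or 3. With slide as a fixed block the trend was 0.22 (adjusted p = 0.270), and as a random block the adjusted p was 0.846.

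The other member that rose was on the reverse strand of chr8:67552315-67561235 (probe A_30_P01031408). It read -4.86, -4.65 and -4.79 in controls, -5.55, -4.49 and -4.77 at 20 ppm, -5.55, -4.88 and -4.29 at 500 ppm, -4.59, -4.01 and -4.04 at 2500 ppm, and -3.04, -2.33 and -2.66 at 5000 ppm. The 3 lungs at 5000 ppm stood above all 12 others, which lay close to the limit of detection: the probe was not well above background in any 20 ppm lung and in 2 of the 3 at 500 ppm. Against the 20 ppm diet the signal at 5000 ppm was 4.77-fold higher, a bound. On each 20 ppm array the bound took the probe's own reading, or the level of the dimmest probe still detected where that was higher. The 20 ppm mean was -4.93 with this bound and -4.94 as read.

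The trend of the chromosome 8 member was 0.49 ± 0.07 (SE) per dose rank (limma's adjusted p = 0.0259). At 5000 ppm the difference from control was 2.09 ± 0.33, or 4.25-fold, with an adjusted p of 0.0735, which ran from 0.0252 without the 500 ppm mouse 3 to 0.398 over the arrays left out singly. The interval lies inside chr8:67542714-67561694, whose reverse probe was well above background on no array and whose forward probe differed by 0.17 ± 0.39 at 5000 ppm (adjusted p = 0.973). The trend lost its call without any 1 of the control or 5000 ppm mice or without the 2500 ppm mouse 2. The overlapping reverse interval chr8:67550064-67560987 (A_30_P01033125) was well above background on 4 arrays, was not tested, and followed the called probe with r = 0.30. With slide as a fixed block the trend was 0.21 (adjusted p = 0.453), and as a random block the adjusted p was 0.846.

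**Figure D4:**
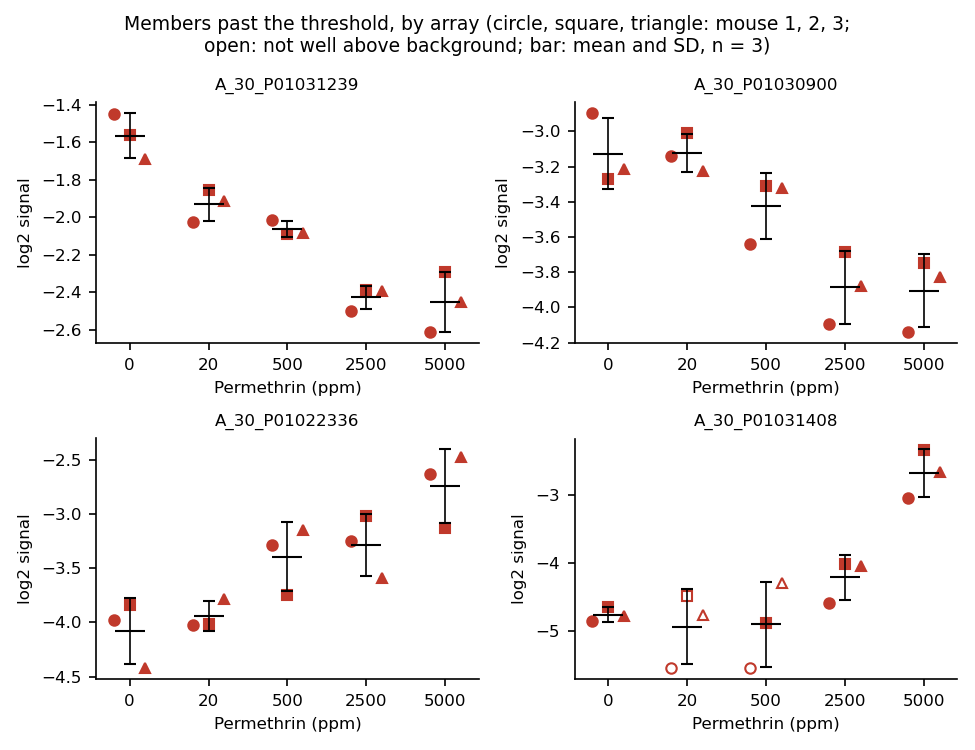
Log2 signal relative to the array's 75th percentile against permethrin (ppm) for the 4 members past the threshold, on axes of their own: A_30_P01031239 (chromosome 5) and A_30_P01030900 (chromosome 18) fell with dose, A_30_P01022336 (chromosome 18) and A_30_P01031408 (chromosome 8) rose. Points are mice, open where not well above background, and bars are mean and SD of 3 mice; the 5000 ppm lungs of the chromosome 8 member lie between -3.04 and -2.33.

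Beyond the called members, many separated the 5000 ppm lungs from the controls without passing the test. All 3 lungs at 5000 ppm lay above all 3 controls for 329 members (9.75%), beside 12.9% of all features, and below them for 276 (8.18%), beside 4.99% of all features. Among those detected on all 15 arrays, the 6 largest rises ran from 1.01 to 1.59 and the 6 largest falls from -1.28 to -0.81; apart from the chromosome 5 member, their adjusted p values missed the threshold. At 2500 ppm, 239 members lay above all controls (7.08%; 8.83% of all features) and 181 below (5.36%; 4.74%). At 20 ppm, 52 lay above (1.54%; 1.51%) and 204 below (6.04%; 4.31%), and at 500 ppm 110 above (3.26%; 4.54%) and 93 below (2.75%; 2.14%). Between the highest doses, 176 were higher at 5000 than at 2500 ppm in every lung (5.21%; 8.17%) and 217 lower (6.43%; 7.08%).

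The largest of these rises shows how 2 probes of 1 interval can part. Probe A_30_P01028919 on the reverse strand of chr6:129151512-129208737 read -1.47, 0.74 and -0.88 in controls, -1.60, -1.10 and -0.70 at 20 ppm, -0.93, 1.28 and -0.82 at 500 ppm, -1.13, -0.58 and 1.38 at 2500 ppm, and 0.99, 1.06 and 1.10 at 5000 ppm. Values fell into a lower and a higher set, with all 3 lungs at 5000 ppm in the higher one and 1 lung each of the control, 500 ppm and 2500 ppm diets beside them. The difference at 5000 ppm was 1.59 ± 0.72 (SE; limma's adjusted p = 0.963). The other probe on the same stranded interval, A_30_P01022593, ran the other way, with r = -0.52 over 15 arrays and -0.91 over the 11 arrays that did not stand apart.

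The largest falls at 5000 ppm took several courses over dose. On the reverse strand of chr13:28537223-28539860, probe A_30_P01032874 read 0.41, 0.28 and 1.42 in controls, 0.21, 0.43 and 0.57 at 20 ppm, 0.27, 0.41 and 0.15 at 500 ppm, -0.66, 0.35 and -0.30 at 2500 ppm, and -0.43, -0.19 and -0.14 at 5000 ppm. The lungs at 5000 ppm lay below all control, 20 ppm and 500 ppm lungs, and 1 lung at 2500 ppm lay among those. The difference at 5000 ppm was -0.96 ± 0.30 (SE; limma's adjusted p = 0.738).

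The forward-strand member chr2:170029045-170034220 (probe A_30_P01026953) read -1.78, -1.57 and -1.38 in controls, -1.14, -0.85 and -0.82 at 20 ppm, -1.80, -1.84 and -2.08 at 500 ppm, -2.60, -3.09 and -1.76 at 2500 ppm, and -2.54, -1.87 and -3.53 at 5000 ppm. It was highest in the 20 ppm lungs, which lay above all controls, and lowest at the highest doses, and its difference at 5000 ppm was -1.07 ± 0.38 (SE; limma's adjusted p = 0.889). The reverse-strand member on chrX:146827709-146913398 (probe A_30_P01024496) had the largest fall, -1.28 ± 0.66 (adjusted p = 0.963), but varied between single lungs: it read 1.84, 2.14 and 2.63 in controls, between -0.42 and 1.70 at 5000 ppm, and between -0.38 and 2.11 at the other diets. Another probe on that stranded interval, A_30_P01021957, did not follow it (r = -0.03). This other probe read -1.10, -0.92 and -0.94 in controls and, above them all, -0.68, -0.68 and -0.76 at 5000 ppm.

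At 2500 ppm the 3 members with the smallest p had adjusted p = 0.111 each, and besides the chromosome 5 member both were higher. On the reverse strand of chr3:51804655-51805883, probe A_30_P01031348 read -2.07, -1.45 and -1.58 in controls, -1.20, -1.12 and -1.23 at 20 ppm, -1.26, -1.20 and -1.23 at 500 ppm, 0.09, -0.02 and -0.65 at 2500 ppm, and -0.86, -0.87 and -1.05 at 5000 ppm. The 2500 ppm lungs were the highest of all and the 5000 ppm lungs came next. The difference was 1.51 ± 0.20 (SE) at 2500 ppm and 0.77 ± 0.20 at 5000 ppm (limma's adjusted p = 0.533).

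The 2500 ppm lungs were also the highest on the reverse strand of chr6:31078802-31079644 and the forward strand of chr5:111565658-111566257. On both, the 5000 ppm lungs overlapped those of the 20 ppm and 500 ppm diets. On the first the 5000 ppm lungs all lay just above the controls, and on the second they overlapped the controls too. The first, probe A_30_P01029853, read 4.04, 3.98 and 3.49 at 2500 ppm and between 2.49 and 3.21 in every other lung. The second, probe A_30_P01021193, read 0.04, -0.21 and -1.12 at 2500 ppm and between -2.20 and -1.35 in every other lung. Their differences from control at 2500 ppm were 1.07 ± 0.18 and 1.53 ± 0.27 (SE), with limma's adjusted p = 0.111 for each, and both were lower at 5000 than at 2500 ppm by a difference whose adjusted p was 0.601.

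Without the 2500 ppm mouse 3, whose array stood apart, 5 members were higher and 3 lower than control at 2500 ppm, beside 37 and 9 of all 34402 features. They included the 3 just described, with limma's adjusted p = 0.0110 for the chromosome 3 and the chromosome 5 forward-strand member and 0.0203 for the chromosome 6 member, and the member that fell on chromosome 5, with 0.0467. Also higher were chr9:121256738-121257487 forward (A_30_P01027700; 1.52, adjusted p = 0.0212) and chr6:83368261-83407280 reverse (A_30_P01026288; 1.41, adjusted p = 0.0272). Also lower were chr11:99970341-99973420 reverse (A_30_P01033618; -1.35, adjusted p = 0.0285) and chr5:14923900-15062725 forward (A_30_P01019649; -1.44, adjusted p = 0.0448). The last of these read -0.77, -0.91 and -0.95 in controls, -2.21, -2.42 and -1.74 at 2500 ppm and -1.58, -1.63 and -1.64 at 5000 ppm. Another probe on its stranded interval, A_30_P01022887, did not follow it (r = -0.45 over 15 arrays). That probe read -4.25, -3.47 and -3.58 in controls and -3.44, -3.82 and -3.40 at 2500 ppm. Without the 500 and 2500 ppm mouse 3 together the counts were 9 higher and 9 lower, beside 82 and 44 of all features, and on the trend 6 and 12, beside 51 and 76.

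At 500 and 20 ppm no member came near the threshold. Among the smallest p values was a dim member that both doses shared. On the forward strand of chr9:41300137-41301556, probe A_30_P01033215 read -5.14, -4.82 and -4.56 in controls, -4.22, -3.55 and -2.90 at 20 ppm, -3.36, -3.07 and -3.32 at 500 ppm, -2.87, -3.64 and -3.33 at 2500 ppm, and -3.39, -4.45 and -4.47 at 5000 ppm. Every permethrin-fed lung lay above the controls, with the least distance at the highest dose. The difference was 1.59 ± 0.35 (SE) at 500 ppm, with limma's adjusted p = 0.941, and 0.74 ± 0.35 at 5000 ppm, with 0.963.

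Some members crossed the detection limit between diets. On 139 members all 3 lungs of 1 diet were well above background and no lung of another was; for 7 of them the bound on the difference was 2-fold or more. These were 3.13% of the members, beside 1.91% of all probes. The commonest case was detection in controls and none at 5000 ppm, with 50 members (1.12%) beside 0.648% of all probes, while the reverse was seen for 1 member (0.0225%; 0.0247%). The share of detected probes was lower on the 5000 ppm arrays as given above, also among other probes, and its part in these counts was not tested.

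The largest such bound belonged to the reverse strand of chr11:33414450-33450750. Probe A_30_P01017787 read -5.88, -7.15 and -6.28 in controls, -6.01, -2.99 and -3.63 at 20 ppm, -6.21, -2.97 and -3.32 at 500 ppm, -2.85, -2.06 and -2.58 at 2500 ppm, and -4.14, -6.02 and -3.61 at 5000 ppm. It was well above background in no control, in all 3 lungs at 2500 ppm and in 2 of 3 at each other dose, where the remaining lung read as low as a control. The signal at 2500 ppm was at least 6.27-fold that of controls, a bound, and limma's test did not pass (adjusted p = 0.185).

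A short reverse interval inside it, chr11:33442089-33444467, repeated the pattern lung by lung. Its probe A_30_P01018705 read -4.39, -4.57 and -4.52 in controls, -5.14, -2.36 and -3.36 at 20 ppm, -4.24, -2.81 and -2.18 at 500 ppm, -2.53, -1.78 and -2.32 at 2500 ppm, and -3.13, -4.22 and -3.03 at 5000 ppm. The same 3 permethrin-fed lungs were low, and the probes correlated with r = 0.95 over 15 arrays. The other probe of the longer reverse interval, A_30_P01027940, did not follow them (r = 0.04 with the first and 0.21 with the second).

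Other members differed as widely between lungs of 1 diet. On the reverse strand of chr5:23195569-23218551, probe A_30_P01019583 read 0.46, 0.92 and -2.65 in controls, 0.49, 0.75 and 1.83 at 20 ppm, -2.75, 0.89 and 1.73 at 500 ppm, 2.19, -2.22 and 1.83 at 2500 ppm, and 0.92, 0.74 and 0.75 at 5000 ppm. Low values were seen in 3 lungs, 1 each of the control, 500 ppm and 2500 ppm diets, and the other 12 lay between 0.46 and 2.19. On the forward strand of chr2:113880070-113887230, A_30_P01029543 ran from -4.61 to 0.58 with both ends of the range at 2500 ppm. The upper end was in the 2500 ppm mouse 3, whose array stood apart. Over the 11 arrays that did not stand apart the highest value was -0.01, in the 500 ppm mouse 2. The sister probe A_30_P01023257 followed A_30_P01029543 with r = 0.87 over all 15 arrays. The chromosome 5 and chromosome 2 members were chosen after their values were seen, for a large range over the 11 arrays that did not stand apart.

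**Figure D5:**
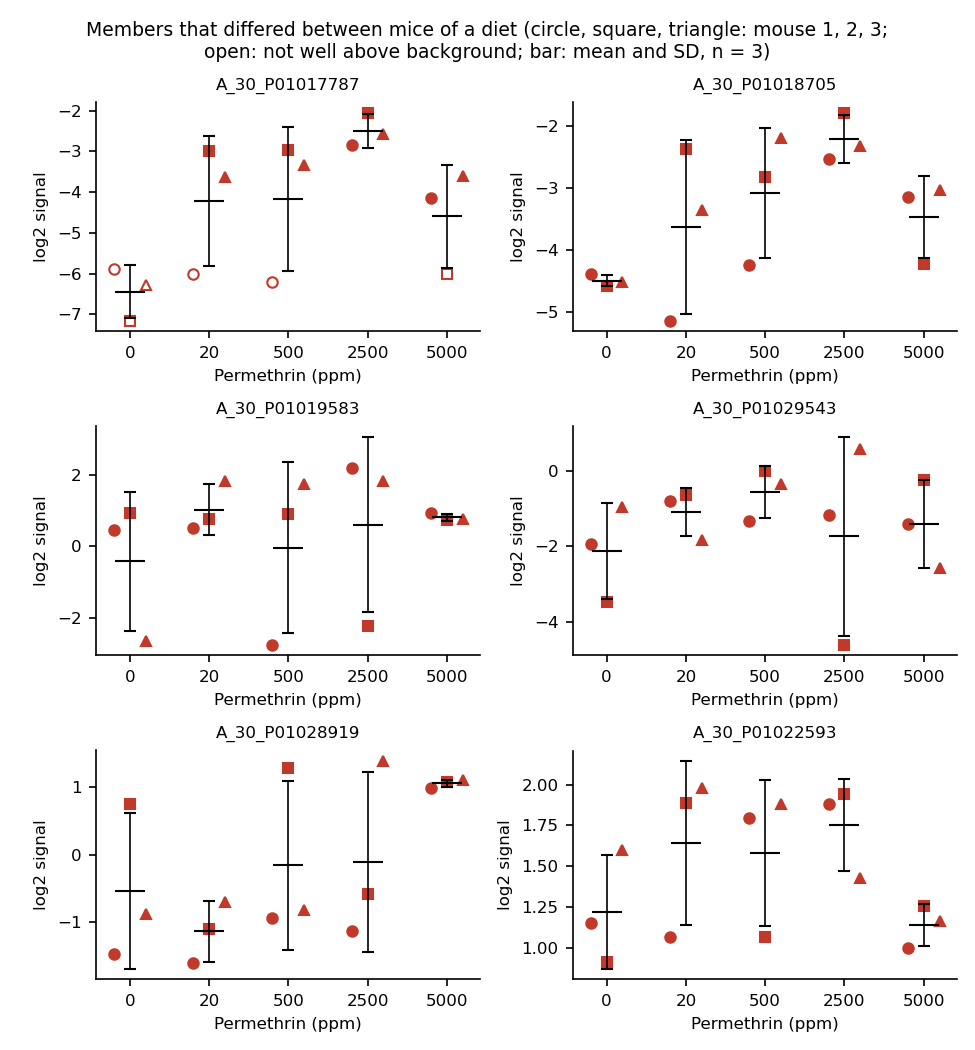
Log2 signal relative to the array's 75th percentile against permethrin (ppm) for 6 members with wide differences between mice of a diet, on axes of their own: the chromosome 11 pair (top), members on chromosomes 5 and 2 (middle) and both probes of a chromosome 6 interval (bottom). Points are mice, open where not well above background, and bars are mean and SD of 3 mice; in the top row the same 3 permethrin-fed mice lie near the controls, and in the bottom row the probes run in opposite directions.

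In the median, the spread between arrays of a diet was wider among members than among mRNA features. The median within-diet SD was 0.35 for the 2599 members detected on all 15 arrays, 0.24 for mRNA features and 0.28 for all features detected on all arrays. The sets are unlike: an mRNA feature is the brightest probe of its symbol, while every member probe was kept. Member probes were also dimmer, with a median level of -3.53 against -1.57 for mRNA probes. These levels are over all probes of each kind, detected or not, and so over larger sets than the SDs. The part of these differences in the spread was not tested. Very wide spreads were not more frequent: an SD over 1 was seen in 0.923% of members, 1.44% of mRNA features and 1.26% of all features. Of 50 listed long noncoding RNAs that do have a name, 37 could be tested, and limma called none at any diet or on the trend. Their median difference from control was 0.15 at 5000 ppm and 0.20 at 2500 ppm, beside 0.07 and 0.05 over all features. In limma 3 and 6 of the 37 genes had an unadjusted p under 0.05, beside 5.1% and 8.50% of all features.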

How the data were processed

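Total lung RNA of 15 mice was hybridised to single-colour Agilent arrays. The files hold each spot's processed intensity and its call of well above background, written by Feature Extraction 10.7.3.1 per the file headers, which give build mm9 for the 8 arrays of the first slide; the second slide holds the same probes. The authors' deposited table holds log2 values that equal the log2 processed signal up to a constant for each array. How background was treated is otherwise not given in the sources used here.

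Replicate spots were averaged, log2 taken and each array's 75th percentile over noncontrol probes subtracted. Probes well above background on all 3 arrays of at least 1 diet were kept, with the brightest probe per symbol and probes without a symbol as they are: 34402 features. limma 3.58.1 in R 4.3.3 (lmFit, eBayes) was fitted to 15 arrays with 1 coefficient a diet, adjusted by Benjamini-Hochberg over all features. Shares were compared by an exact permutation test (scipy 1.17.1). The fit was tested on simulated data. The labels call the samples biological replicates. Deviations of same-numbered control and 20 ppm mice correlated with r = 0.61, 0.26 and 0.17 for mice 1, 2 and 3. The control mouse 2 with the 20 ppm mouse 3, and the control mouse 3 with the 20 ppm mouse 2, each gave r = 0.37. No pairing by number was therefore shown, and the labels name none. Numbers of the other diets did not pair with those of the controls either.

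Members and lists were chosen with earlier results of these data known. Named members were those past the threshold in 6 contrasts, the 6 largest rises and falls at 5000 ppm and on the trend with separate groups, the 3 smallest p values elsewhere, the 5 brightest, those sharing an interval with them, and the 4 largest changes across the detection limit. Positions relative to named genes and probe sequences were not analysed here. Alternatives covered background, scale, filter, feature choice, blocks, weights, dose scale and left-out arrays; 3 of them, without the 4 arrays apart and within either slide, were added after seeing the data.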

Additional observations from a re-analysis of the deposited data

How the results depend on the processing

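The number of members called by limma depended on the setting. With slide as a fixed block it was 810 at 2500 ppm, 808 at 5000 ppm and 887 on the trend, nearly all lower, since that block is set by the 500 ppm mice alone, of which mouse 3 stood apart; as a random block it was 0 at 5000 ppm and 0 on the trend. Array weights gave 1 member at 20 ppm, 133 at 2500 ppm, 10 at 5000 ppm, 67 at 5000 against 2500 ppm and 127 on the trend. Over all features they called 3 higher and 26 lower at 20 ppm, 502 and 450 at 2500 ppm, and 63 and 46 at 5000 ppm. At 5000 against 2500 ppm they called 173 and 482, and on the trend 242 and 504. Without the 500 and 2500 ppm mouse 3 the counts were 18 at 2500 ppm, 2 at 5000 ppm, 2 at 5000 against 2500 ppm and 18 on the trend; without mouse 1 of the control and 20 ppm diets, 0 at 5000 ppm and 1 on the trend; without all 4, 57 at 2500 ppm, 0 at 5000 ppm, 154 at 5000 against 2500 ppm and 19 on the trend. For fits with arrays left out, counts over all features are given only where the text above states them. For the next settings, brackets hold all features called higher and lower. Normexp background gave 1 member at 2500 ppm (1 and 0), 0 at 5000 ppm (15 and 0) and 1 on the trend (33 and 9). Quantile normalization gave 0 at 5000 ppm (13 and 1) and 2 on the trend (35 and 18). The array median as the scale gave 1 at 5000 ppm (8 and 1) and 2 on the trend (14 and 19). A fit to only the groups compared gave 1 at 5000 ppm (6 and 3). In both, the member called at 5000 ppm was the rising chromosome 8 member (limma's adjusted p = 0.0143 and 0.0476), in place of the chromosome 5 one. No filter gave 0 at 5000 ppm (11 and 0) and 1 on the trend (16 and 9). Robust empirical Bayes with a trend gave 1 at 2500 ppm (5 and 0) and 0 at 5000 ppm (21 and 0). A minimum log2 difference of 1 gave 0 at 5000 ppm (13 and 0) and 0 on the trend (1 and 2). For these the cause was not tested. Leaving out single arrays gave 0 to 8 members at 2500 ppm (8 without the 2500 ppm mouse 3), 0 to 2 at 5000 ppm, 0 to 2 at 5000 against 2500 ppm, 1 to 8 on the trend (7 without the 500 ppm mouse 3, 8 without the 2500 ppm mouse 3) and 0 at 20 and 500 ppm; the difference in detected share stayed between -7.28 and -4.51 points.

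Deviations of same-numbered mice correlated between -0.25 and 0.61. All 3 pairs exceeded 0.1 between control and 20 ppm, where the replicate block called 0 members as the unblocked fit did. There, mice 2 and 3 correlated more with the other number (r = 0.37 each) than with their own. Between 500 and 2500 ppm, which were not compared, all 3 pairs also exceeded 0.1. For the other diets the numbers did not pair the samples. A replicate block called 1 member at 5000 ppm, the chromosome 8 member (adjusted p = 0.00797) in place of the chromosome 5 one (0.0870), and 6 on the trend, among them the chromosome 5 and chromosome 8 members but neither on chromosome 18. Over all features that block called 13 higher and 0 lower at 5000 ppm, and 29 and 15 on the trend. The trend of the chromosome 5 member kept its call under 27 of 32 alternatives, its difference at 5000 ppm under 8 of 31, the chromosome 8 trend under 18 of 31, and the chromosome 18 trends under 12 and 7 of 32; no sign turned.

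The alternatives on distance to a named gene were not run, for want of an annotation in the build of the files. With 3 mice a diet precision is limited, and members close to background carry the least information.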

Other observations

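The share of coordinate-only probes well above background on all 15 arrays ran from 48.3% of 174 on chromosome X to 65.0% of 254 on chromosome 6. Chromosome 1 held the most probes, 343.

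Further members with a wide range over lungs, chosen after their values were seen, showed 1 lung apart. On the forward strand of chr9:65376063-65390480, A_30_P01020560 read 1.04 in the control mouse 3 and between -2.24 and -0.68 in the other 14 lungs. On the forward strand of chr1:23340743-23341144, A_30_P01025359 read -4.75 in the 500 ppm mouse 1 and between -2.96 and -0.44 in the others.

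Both strands of chr12:74135916-74142780 were read, and they did not follow each other (r = -0.12 over 15 arrays). The forward probe A_30_P01030086 was well above background in all 3 controls (-4.23, -3.61 and -4.00) and in no lung at 5000 ppm (-6.56, -4.58 and -5.12). The reverse probe A_30_P01030618 read -4.05, -4.65 and -4.23 in controls and -3.32, -2.51 and -3.50 at 5000 ppm. At 20 ppm the forward probe read -5.35, -6.05 and -5.29, and the reverse probe -4.10, -3.30 and -4.35. The reverse probe was highest on the arrays of the 500 ppm mouse 3 (-1.82) and the 2500 ppm mouse 3 (-2.03), which stood apart. The forward signal was at least 1.71-fold higher in controls, a bound, and the reverse signal differed by 1.20 ± 0.66 (SE); neither passed in limma (adjusted p = 0.660 and 0.963).

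A member highest in the middle of the dose range lay on the forward strand of chr19:58222540-58223077. Probe A_30_P01018224 read -4.04, -3.17 and -4.12 in controls, -3.18, -4.18 and -3.24 at 20 ppm, -2.64, -2.45 and -2.66 at 500 ppm, -3.05, -2.61 and -3.09 at 2500 ppm, and -3.68, -4.04 and -3.79 at 5000 ppm. The 500 and 2500 ppm lungs lay above all others. The difference from control was 1.19 ± 0.29 (SE) at 500 ppm and -0.06 ± 0.29 at 5000 ppm, with limma's adjusted p = 0.941 and 0.986.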
